A study of Rattus norvegicus with 6 samples.

Results

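Wnt ligands, their receptors and their antagonists were followed across 6 RNA libraries of rat alveolar tissue, the part of the jaw that holds the teeth. The members were the rows of the count table whose gene symbol names a Wnt, Frizzled, secreted Frizzled-related, Dickkopf or R-spondin protein, plus a fixed set of 19 further symbols of the pathway, among them Lrp5, Lrp6, Axin2, Ctnnb1, Lef1 and Wif1. This gave 59 of 37203 genes in the table; Axin1, also named in the set, is not analysed here. The study compared tooth movement with and without corticision, a minor operation in which the jaw's cortex is incised to speed orthodontics. The case group holds libraries 5, 6 and 9, whose source field reads without corticision, and the control group holds libraries 5, 6 and 10, whose source field reads with corticision. These 2 fields run opposite to the usual sense of the words, so groups are called by their titles here and every difference is case minus control. All the animals had teeth moved, and the labels give no strain, sex, age, force or day, and are silent on whether replicate libraries are different animals. The p-values therefore measure the spread between these libraries, which may be technical.

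Wnt proteins are secreted lipid-modified signals that bind Frizzled receptors together with the coreceptors Lrp5 and Lrp6. Binding stops the destruction of beta-catenin, which then enters the nucleus and acts with Tcf and Lef factors on target genes. R-spondins strengthen the signal by removing the ubiquitin ligases Znrf3 and Rnf43 from the membrane. Wif1, Notum, Sostdc1 and many Sfrp and Dkk proteins can hold it back outside the cell. All Sfrp and Dkk genes are grouped here as secreted antagonists by family name, which does not show that each of them inhibits. In bone the pathway is known for driving osteoblast formation, and in teeth for patterning and root and dentin formation.

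The libraries held 10886303 to 14433740 counts, and 52 to 55 of the 59 members had a count in a given library. Levels are given as CPM (counts scaled to the library size after TMM, the trimmed mean of M-values), and a gene with 0 counts could still lie at up to 3 counts, which is 0.2 to 0.274 CPM, from counting error alone. Osteoblast markers were high in every library: the 10 genes of that list together took 58730 to 128500 CPM in case and 72800 to 104500 CPM in control. Most of this sum was the collagen genes Col1a1 (36040 to 74750 CPM in case, 42630 to 61670 CPM in control) and Col1a2. In the same list Bglap had 2422 to 5976 CPM in case and 3207 to 4939 CPM in control. Ibsp had 2051 to 2643 and 1969 to 3734 CPM. Other tissue differed by library, as the plot of marker lists shows. The 8 odontoblast and ameloblast genes summed to 459.6, 2.93 and 2.35 CPM in case 5, 6 and 9 and to 89.8, 7.79 and 0.64 CPM in control 5, 6 and 10. The 11 oral epithelium genes summed to 3484 CPM in control 5 and to between 40.5 and 88.3 CPM in the other 5 libraries. Muscle genes ran from 117.8 to 1247 CPM in case and from 8.84 to 976.7 CPM in control. The libraries numbered 5 thus stood apart in both groups by tooth-forming cell genes. Since these are bulk samples, fewer cells of a type and less RNA per cell cannot be told apart.

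**Figure D1:**
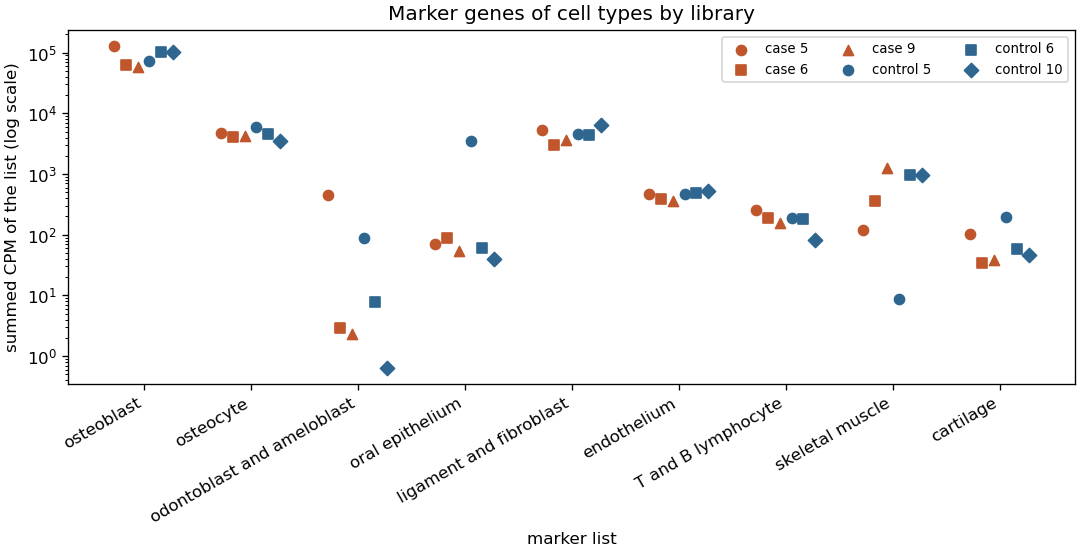
Summed CPM on a log axis for 9 lists of cell type markers (horizontal axis), with 1 point per library, case in orange left of control in blue. Case 5 and control 5 (circles) lie above the other 4 libraries for the odontoblast and ameloblast list, and control 5 lies far above all others for oral epithelium.

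Of the 59 members, 47 had enough counts to be tested. The edgeR quasi-likelihood test called 0 of these 47 between case and control at a Benjamini-Hochberg adjusted p of 0.05, and 0% of all 16066 tested genes. The smallest adjusted p among members was 0.999. At an unadjusted p under 0.05 there were 3 members. Tcf7l1 was higher in case, 1 of 47 members (2.13%) where the share over all tested genes was 1.88%, and Fzd1 and Dkk2 were lower, 2 of 47 (4.26%) where it was 2.27%. The same 3 genes were the only tested members whose groups did not overlap: 1 higher in case, against 4.05% of all tested genes, and 2 lower, against 4.42%. DESeq2 called 0.131% of the genes and 0 members. It gave an unadjusted p under 0.05 to 739 of the 16066 tested genes. Among members these were 1 higher in case (Tcf7l1) and 3 lower (Dkk2, Fzd1 and Sfrp4).

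The median log2 fold change was -0.14 over the tested members and -0.02 over all tested genes. Of the members 17 were higher and 30 lower in case, and of all 16066 tested genes 7446 were higher and 8620 lower. The members' median was -0.23 without case 5 and -0.01 without case 9. It turned to 0.03 in a fit of the libraries numbered 5 and 6 with the title number as a block. Members are a filtered set, so these counts only describe them.

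**Figure D2:**
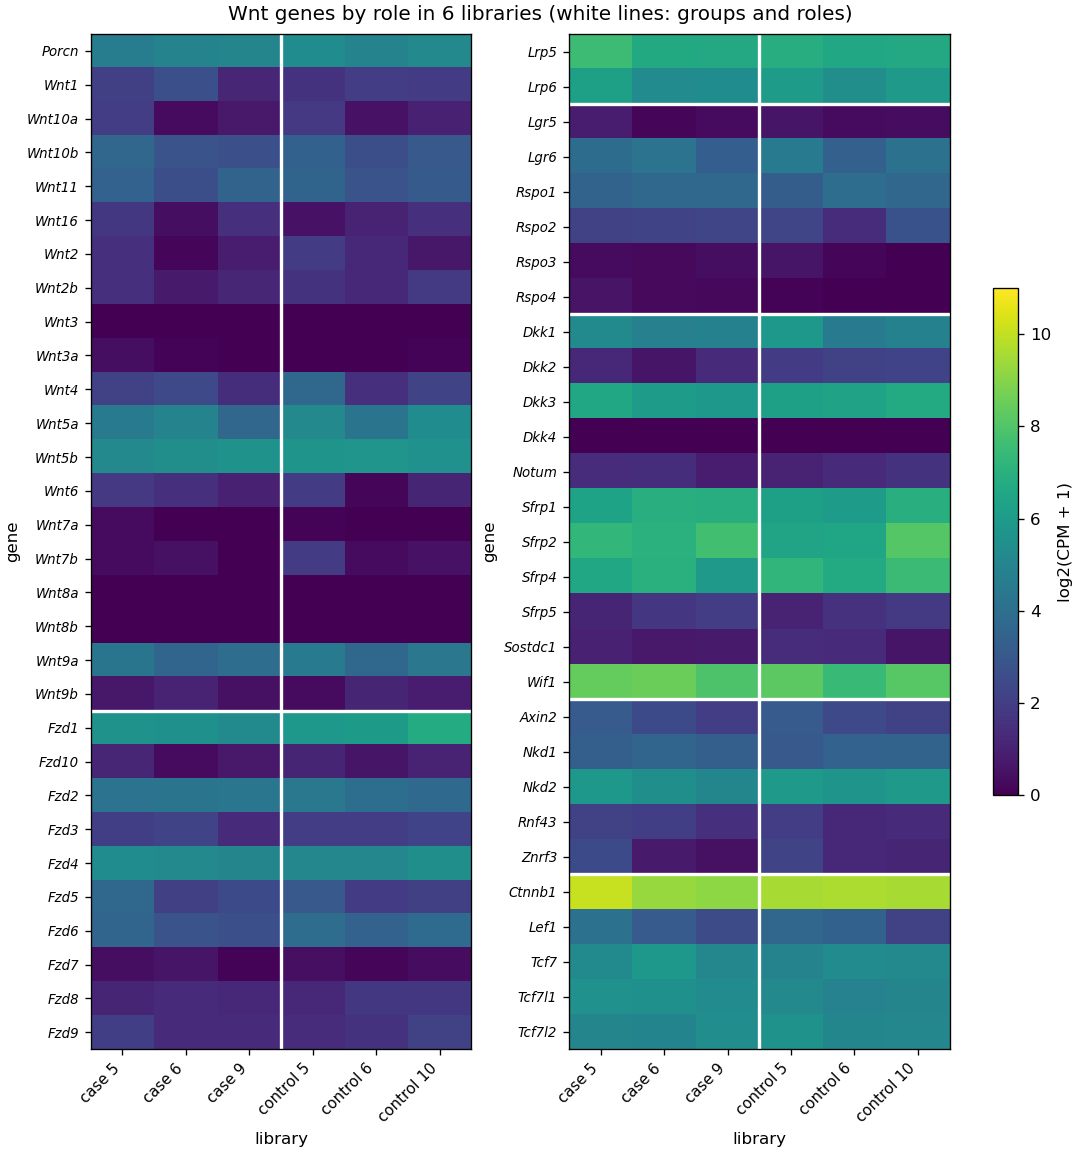
Level of each of the 59 members as log2(CPM + 1), genes down the page by role and libraries across, case left of the white line and control right of it; horizontal white lines separate roles. Wnt3, Wnt8a, Wnt8b and Dkk4 are at 0 in every library, and Ctnnb1 lies between 557 and 1070 CPM before the log.

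Promoter sequences are given for 4 members: Axin2 and Nkd1, feedback genes of the pathway that hold the motif searched, and Fzd1 and Tcf7l1, which had separate groups. Dkk2 also had separate groups, but its sequence is not shown. Each is the 250 bases before the gene's start from RefSeq, assembly GRCr8, read 5′ to 3′ on the gene's strand. Matches to CTTTGA or its reverse complement TCAAAG, a form of the core bound by Tcf and Lef factors, are in capitals. Only these exact letters were searched, so other forms of the core, such as CTTTGT, were not marked or counted. The windows are chr10:94398535-94398784 (plus strand) for Axin2, chr19:34722847-34723096 (minus strand) for Nkd1, chr4:30264824-30265073 (plus strand) for Fzd1 and chr4:106403422-106403671 (minus strand) for Tcf7l1.
Axin2: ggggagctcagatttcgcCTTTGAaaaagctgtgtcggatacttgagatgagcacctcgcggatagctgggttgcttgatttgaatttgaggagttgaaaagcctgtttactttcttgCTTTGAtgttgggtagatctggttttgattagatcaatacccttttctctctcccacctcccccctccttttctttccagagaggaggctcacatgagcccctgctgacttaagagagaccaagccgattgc
Nkd1: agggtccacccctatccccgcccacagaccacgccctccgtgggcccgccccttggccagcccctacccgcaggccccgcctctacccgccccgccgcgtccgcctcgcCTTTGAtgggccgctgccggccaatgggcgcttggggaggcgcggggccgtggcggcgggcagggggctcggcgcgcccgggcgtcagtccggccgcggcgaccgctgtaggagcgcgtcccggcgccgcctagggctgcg
Fzd1: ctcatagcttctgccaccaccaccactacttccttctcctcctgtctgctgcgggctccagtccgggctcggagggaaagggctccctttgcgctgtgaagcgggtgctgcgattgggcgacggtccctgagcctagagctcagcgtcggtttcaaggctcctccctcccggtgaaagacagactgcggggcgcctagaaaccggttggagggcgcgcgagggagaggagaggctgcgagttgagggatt
Tcf7l1: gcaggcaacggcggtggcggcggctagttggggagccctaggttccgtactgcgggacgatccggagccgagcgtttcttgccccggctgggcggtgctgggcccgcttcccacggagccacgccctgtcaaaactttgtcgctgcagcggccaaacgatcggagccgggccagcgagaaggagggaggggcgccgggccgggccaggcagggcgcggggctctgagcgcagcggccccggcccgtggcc
Axin2 held 2 matches, starting 232 and 132 bases before the start, Nkd1 held 1 at 141 bases, and Fzd1 and Tcf7l1 held 0. A promoter was at hand for 40 of the 59 members, and 5 of these 40 (12.5%) held the motif: Axin2, Dkk1, Fzd7, Nkd1 and Wnt8a. Over all 33469 promoters of the table the share was 13.9%, so the members' share was near that of promoters at large. A match is a stretch of letters and not a measured binding site.

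Among the ligands, 20 genes with Porcn, the acyltransferase that lipidates Wnts, 13 were tested, 5 of them higher and 8 lower in case, with a median log2 fold change of -0.25. Wnt5a, a ligand known for signalling without beta-catenin, had 22.6, 29.1 and 11.3 CPM in case 5, 6 and 9 and 35.0, 17.6 and 40.2 CPM in control 5, 6 and 10. Case 6 lay above control 6, and the log2 fold change was -0.56 (SE 0.41). It was -0.26 without case 9, -0.29 without control 10, -0.87 without case 6, and 0.04 with the block. Wnt5b, its close relative, had 35.6, 41.8 and 47.9 CPM in case and 51.1, 51.6 and 46.6 CPM in control, where case 9 lay above control 10. Its log2 fold change was -0.25 (SE 0.16), and -0.09 without both libraries numbered 5. Porcn had 24.6, 29.3 and 31.4 CPM in case and 39.4, 29.4 and 35.5 CPM in control, with a log2 fold change of -0.29 (SE 0.17); without both libraries numbered 5 it was -0.06. In each of these ligand-side genes the mean was lower in case and the libraries of the groups overlapped.

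Wnt10b, a ligand known for promoting bone formation, averaged 7.57 ± 3.22 CPM in case, against 7.44 ± 2.31 CPM in control (± is the SD of 3 libraries in all such values). Wnt9a averaged 14.7 ± 3.69 and 17.7 ± 5.22 CPM in case and control, Wnt11 8.56 ± 2.92 and 8.19 ± 2.36 CPM, and Wnt1, the founding vertebrate family member, 3.31 ± 2.06 and 2.61 ± 0.459 CPM. Each of these differences was smaller than the larger of the 2 group SDs. Wnt4, known from mouse as an epithelial and bone-acting ligand, had 3.52, 4.32 and 1.68 CPM in case and 12.2, 1.89 and 3.75 CPM in control, so that control 5 alone was high. Wnt7b, too low to test, held 3, 6 and 0 counts in case 5, 6 and 9, against 32, 3 and 5 counts in control 5, 6 and 10. Control 5 was also the library with the oral epithelium genes, where Krt14 had 2375 CPM against 1.83 to 20.4 CPM in the other libraries; the part of epithelium in the Wnt4 and Wnt7b values was not tested.

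The remaining tested ligands, Wnt2, Wnt2b, Wnt6, Wnt10a and Wnt16, had group means between 0.937 and 2.06 CPM. Wnt3, Wnt8a and Wnt8b had 0 counts in every library and Wnt7a at most 3, while Wnt3a reached 4 counts in 1 library and Wnt9b ran from 5 to 16 counts in case and from 3 to 15 counts in control. Some ligand genes stand next to each other among the protein-coding genes placed in RefSeq: Wnt6 with Wnt10a, Wnt10b with Wnt1, Wnt9b with Wnt3, and Wnt3a with Wnt9a. Wnt6 and Wnt10a were both highest in the libraries numbered 5. Wnt9a had 11.2 to 18.5 CPM in case and 11.7 to 21.5 CPM in control, where Wnt3a had 4, 1 and 0 counts in case and 0, 0 and 1 counts in control, and Wnt1 was highest in case 6 (5.39 CPM) where its neighbour Wnt10b was highest in case 5 (11.3 CPM).

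Of the 12 Frizzled receptors and Lrp coreceptors, 11 were tested, 3 higher and 8 lower in case, with a median log2 fold change of -0.19. Fzd1, one of the 10 Frizzled receptors, had 49.1, 44.6 and 37.4 CPM in case 5, 6 and 9 and 58.0, 62.6 and 108 CPM in control 5, 6 and 10. All 3 case libraries lay below all 3 control libraries, and control 10 stood far above the other 2 control libraries. The log2 fold change was -0.80 (SE 0.26; edgeR unadjusted p 0.0163, adjusted p 0.999). Without control 10 it was -0.43 and with the block it was -0.37. Over the alternatives its adjusted p ran from 0.249 to 1, and 13 of 16 kept an unadjusted p under 0.05, the exceptions being those without case 9, without control 10 and with the block. Fzd6, known for planar polarity, had 11.1, 5.99 and 5.46 CPM in case and 14.1, 9.84 and 13.3 CPM in control, where case 5 lay above control 6. Its log2 fold change was -0.72 (SE 0.33; edgeR unadjusted p 0.0609, adjusted p 0.999), and -1.09 without case 5.

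The coreceptor Lrp5, whose loss lowers bone mass in humans and mice, had 185, 100.4 and 98.5 CPM in case and 115, 92.7 and 98.2 CPM in control. Case 5 alone was high, and the log2 fold change of 0.33 (SE 0.26) was -0.01 without that library. Lrp6, the second coreceptor, averaged 50.7 ± 20.7 CPM in case and 55.8 ± 12.6 CPM in control. Fzd4 (35.4 ± 4.53 CPM in case and 36.6 ± 5.89 CPM in control), a receptor of vessels, and Fzd2 (18.0 ± 0.826 and 15.9 ± 3.95 CPM) also differed by less than the larger SD. Fzd8 averaged 1.36 ± 0.144 CPM in case and 2.07 ± 0.659 CPM in control, and Fzd3, Fzd9 and Fzd10 had group means between 0.739 and 3.21 CPM. Fzd7 was not tested, with 4, 8 and 1 counts in case, against 4, 2 and 3 counts in control.

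**Figure D3:**
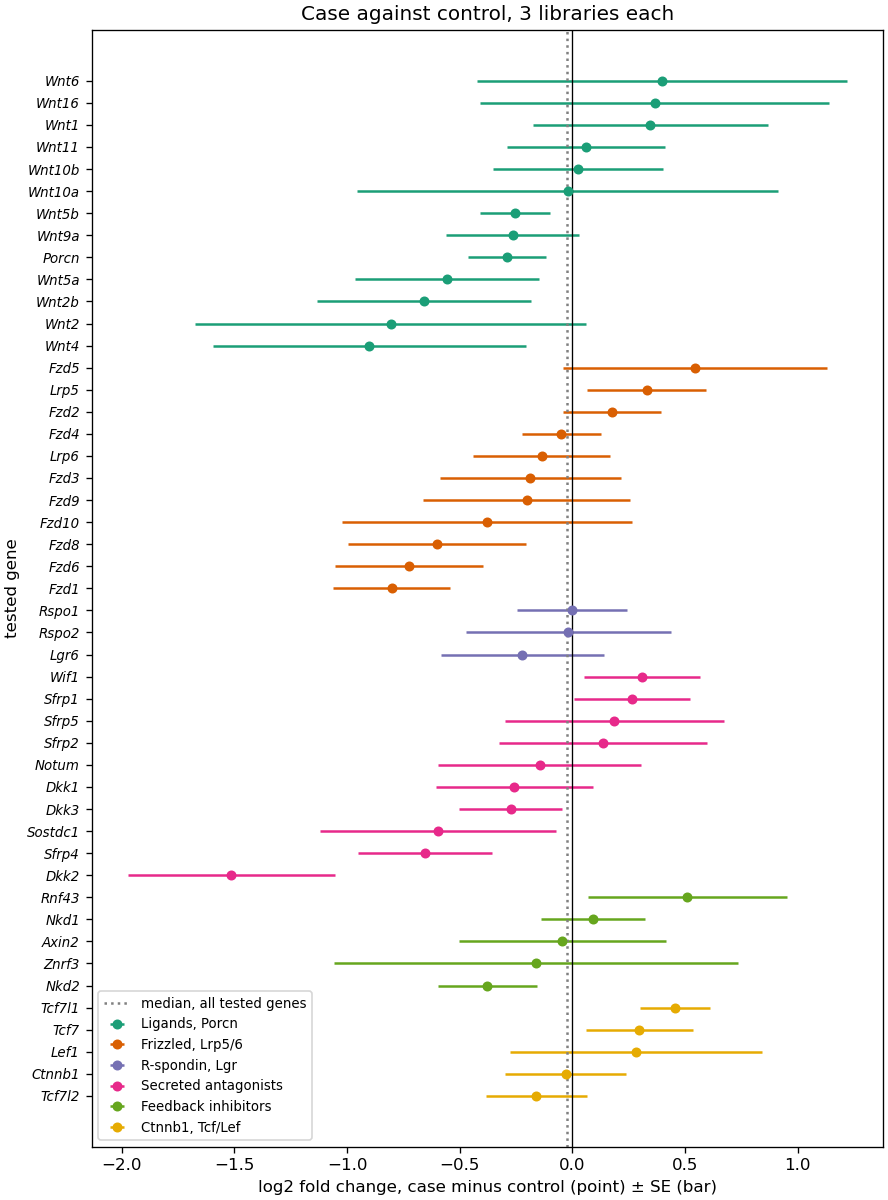
Log2 fold change, case minus control (horizontal axis), for the 47 tested members down the page by role; points are estimates, bars the standard error, and the dotted line the median of all tested genes. Dkk2 (-1.51), Fzd1 (-0.80) and Tcf7l1 (0.45) are the 3 members whose libraries did not overlap, and 0 members passed the adjusted threshold.

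R-spondins and their receptors gave 3 tested genes of 6, with log2 fold changes from -0.22 to 0.00. Rspo1 had 10.3, 11.6 and 12.02 CPM in case and 8.40, 14.2 and 11.3 CPM in control, which overlapped fully. Rspo2, known from mouse limb development, averaged 3.70 ± 0.23 CPM in case and 3.75 ± 2.05 CPM in control. Lgr6, an R-spondin receptor also found on osteoblast precursors in mouse, had 13.9, 17.2 and 8.83 CPM in case and 21.3, 9.29 and 16.2 CPM in control, again overlapping. Lgr5, Rspo3 and Rspo4 were too low to test: Lgr5 held 10, 2 and 3 counts in case, against 6, 3 and 3 counts in control, and Rspo4 held 6, 3 and 2 counts in case, against 1, 0 and 0 counts in control. Lgr4, the related receptor outside the member set, had 44.98, 19.3 and 15.1 CPM in case and 19.3, 24.0 and 23.8 CPM in control, where case 5 alone was high.

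Secreted antagonists showed both directions. Of 11 genes 10 were tested, 4 higher and 6 lower in case, with a median log2 fold change of -0.20. Dkk2, which binds Lrp5 and Lrp6, held 18, 8 and 18 counts in case 5, 6 and 9, against 31, 45 and 40 counts in control 5, 6 and 10, or 1.44, 0.532 and 1.51 CPM and 2.71, 3.54 and 3.66 CPM. Every case library lay below every control library. The log2 fold change was -1.51 (SE 0.46; edgeR unadjusted p 0.0122, adjusted p 0.999). Over 16 alternative settings it ran from -1.80 to -1.16 with an unadjusted p under 0.05 in all 16, while its adjusted p ran from 0.272 to 1. The gene rests on few reads in every library.

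Sfrp4, a decoy receptor whose loss thins cortical bone in humans and mice, had 91.9, 124 and 61.7 CPM in case and 152, 104 and 182 CPM in control. Case 6 lay above control 6, and the log2 fold change was -0.65 (SE 0.30; edgeR unadjusted p 0.0618, adjusted p 0.999). It was -0.43 without case 9 or without control 10, and -0.23 with the block. The unadjusted p of Sfrp4 was under 0.05 in 4 of 16 alternatives, DESeq2 among them. Sfrp1, the related decoy, had 82.9, 118 and 114 CPM in case and 74.7, 66.8 and 121 CPM in control, with a log2 fold change of 0.26 (SE 0.26), and 0.61 without control 10. Sfrp2 had 156, 131 and 205 CPM in case and 85.9, 87.7 and 274 CPM in control: control 10 lay above all case libraries and the other control libraries below them. Its log2 fold change of 0.14 (SE 0.46) was 0.95 without control 10 and -0.14 without control 5. Thus no Sfrp gene had groups that separated, and control 10 held the highest CPM of each of Sfrp1, Sfrp2 and Sfrp4.

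Wif1, which binds Wnts directly and is made by osteoblasts late in their maturation, had 338, 364 and 239 CPM in case and 301, 175 and 283 CPM in control. The log2 fold change was 0.31 (SE 0.26), and it was 0.13 without control 6 and 0.61 with the block. Dkk1, an inhibitor made by osteocytes, had 35.9, 27.0 and 27.5 CPM in case and 57.8, 22.9 and 27.4 CPM in control, so control 5 stood above the rest. Dkk3 averaged 71.6 ± 19.2 CPM in case and 86.7 ± 16.7 CPM in control. Notum, the enzyme that strips the lipid from Wnts, averaged 1.39 ± 0.48 and 1.55 ± 0.481 CPM in case and control, Sfrp5 2.18 ± 0.922 and 1.92 ± 0.757 CPM, and Sostdc1, known from the developing tooth in mouse, 0.82 ± 0.195 and 1.24 ± 0.601 CPM. Dkk4 had 0 counts in all libraries. Apart from Dkk2, each antagonist overlapped between the groups.

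**Figure D4:**
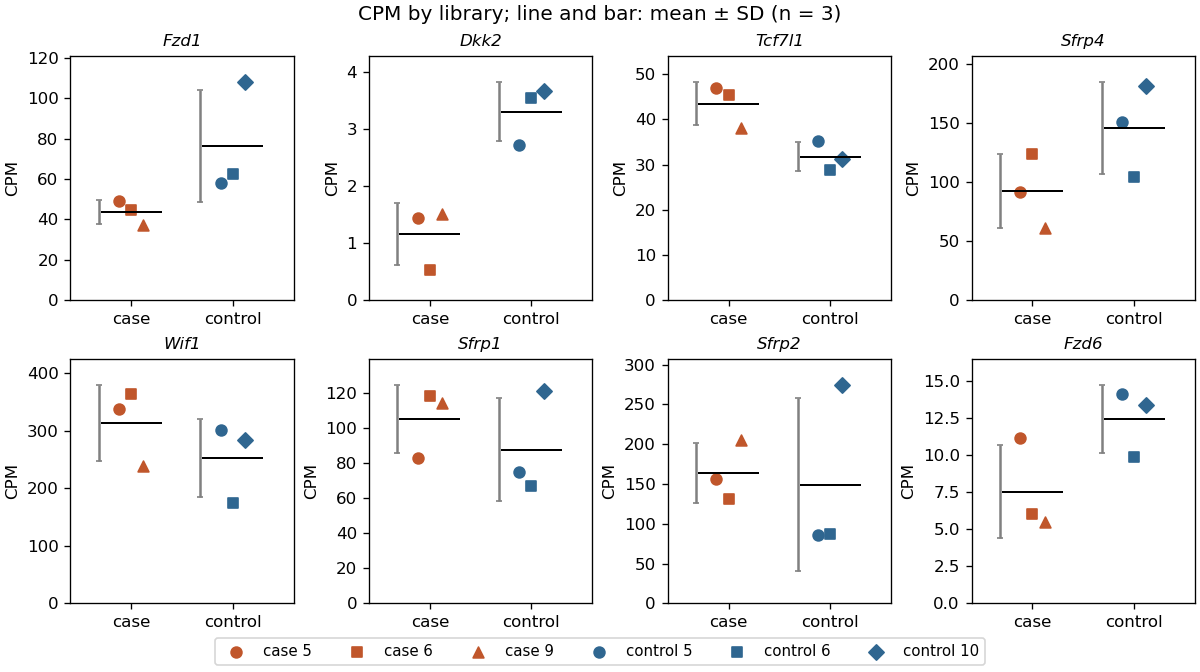
CPM of 8 members in each library, case left of control in each panel; symbols mark libraries, black lines the group means and grey bars ± SD (n = 3). Fzd1 and Dkk2 lie lower and Tcf7l1 higher in case with no overlap, while Sfrp2 spans 85.9 to 274 CPM within control alone.

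The 5 feedback inhibitors inside the cell or in its membrane were all tested, 2 higher and 3 lower in case. Axin2, a scaffold of the beta-catenin destruction complex and a direct target of the pathway, had 7.91, 4.52 and 3.03 CPM in case 5, 6 and 9 and 8.05, 4.33 and 3.56 CPM in control 5, 6 and 10. Same-numbered libraries were close to each other, and the log2 fold change was -0.04 (SE 0.46). Without case 5 it was -0.46 and without control 5 it was 0.39. Znrf3, a ligase that removes Frizzled receptors from the surface, held 57, 11 and 5 counts in case, against 43, 18 and 13 counts in control, and a log2 fold change of -0.16 (SE 0.90) that was -1.82 without case 5 and 0.54 without control 5. Rnf43, its relative, averaged 2.78 ± 0.812 CPM in case and 1.95 ± 0.887 CPM in control. Nkd1 averaged 9.74 ± 1.13 and 9.14 ± 1.56 CPM in case and control, and Nkd2 44.3 ± 12.2 and 57.6 ± 6.33 CPM; both bind Dishevelled. The fold change of the target gene Axin2 was near 0 and changed sign in 4 of 16 alternatives. Besides the one without control 5, these were without case 6 (0.04), without case 9 (0.22) and with the block (0.02). With both libraries numbered 5 left out it was -0.02.

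All 5 transcriptional effectors were tested, 3 higher and 2 lower in case, with a median log2 fold change of 0.28. Tcf7l1, a Tcf factor known mostly as a repressor, had 46.9, 45.4 and 38.1 CPM in case and 35.2, 28.7 and 31.3 CPM in control. Every case library lay above every control library, by a log2 fold change of 0.45 (SE 0.16; edgeR unadjusted p 0.0207, adjusted p 0.999). Over the alternatives the fold change ran from 0.42 to 0.54 and the adjusted p from 0.272 to 1, and 14 of 16 alternatives kept an unadjusted p under 0.05, those without case 6 and without control 6 being the exceptions. Tcf7, the Tcf factor of T cells, had 36.4, 56.7 and 33.1 CPM in case and 29.0, 39.1 and 34.7 CPM in control, and was highest in case 6. The T cell receptor subunit Cd3e was highest in the same library, with 4.79, 14.0 and 9.75 CPM in case, against 1.93, 8.19 and 4.11 CPM in control; the part of T cells in the Tcf7 values was not tested.

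Lef1 had 16.9, 7.98 and 4.96 CPM in case and 11.4, 9.68 and 3.47 CPM in control. Its order across the libraries, case 5, control 5, control 6, case 6, case 9 and control 10, did not follow the groups. Ctnnb1, which encodes beta-catenin, had 1070, 638 and 557 CPM in case and 764, 789 and 760 CPM in control, a wide spread in case and a narrow one in control. Tcf7l2 averaged 34.3 ± 6.21 and 38.3 ± 9.78 CPM in case and control. The genes for precursor B cells also differed by library: Rag1 had 37.1, 0 and 3.78 CPM in case and 21.4, 6.30 and 1.65 CPM in control. They did not share a single order. Rag1, Rag2 and Dntt were highest in case 5 and control 5. Igll1 and Vpreb1 were instead higher in control 6 (22.3 and 5.75 CPM) than in control 5 (15.1 and 4.55 CPM). The 14 lymphocyte genes together took 159.2 to 260.6 CPM in case and 82.8 to 189.4 CPM in control, and their part in the Lef1 values was not tested.

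Members were also set against the title number 5, the only number looked at in this way. In 12 of the 47 tested members (25.5%) both libraries numbered 5 lay above the other 4, where 20.0% of all tested genes did so, and in 4 (8.51%) both lay below, where 17.8% did. The 12 were Axin2, Dkk1, Fzd5, Fzd10, Lef1, Lrp5, Lrp6, Wnt2, Wnt6, Wnt10a, Wnt10b and Znrf3, and the 4 were Fzd8, Nkd1, Rspo1 and Sfrp5. The members' shares lay near the background for the first kind and under it for the second. These values were looked at because the libraries numbered 5 were already known to stand apart, so they are a description without a test.

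Wnt10a, known for its role in tooth formation, had 3.04 CPM in case 5 and 2.54 CPM in control 5, and between 0.266 and 1.005 CPM in the other 4 libraries, a mean 4.61 times as high. It rested on 38 and 29 counts in the libraries numbered 5. Znrf3 had 4.55 and 3.76 CPM in case 5 and control 5 and 0.42 to 1.42 CPM elsewhere (4.43 times), and Axin2 2.07 times the mean of the other 4. Fzd5 had 12.1 and 7.53 CPM in case 5 and control 5 against 2.91 to 4.62 CPM elsewhere. Among receptors the coreceptor Lrp6, with 74.6 and 66.6 CPM in case 5 and control 5, lay above 38.2 to 58.8 CPM in the others. In the other direction Sfrp5 had 1.198 and 1.14 CPM in case 5 and control 5 and 1.97 to 3.03 CPM elsewhere, and Nkd1 9.03 and 7.35 CPM against 9.16 to 11.04 CPM.

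Among the feedback genes, Axin2 and Znrf3 were higher in both libraries numbered 5. Nkd1 was not, and its place below the other 4 rests on 113 counts in case 5 beside 109 counts in case 9. That gap of 0.02 in log2 CPM is within counting error. The odontoblast and ameloblast list was high in the same libraries. In it all genes but Amelx and Mmp20 were higher in both libraries numbered 5 than in the other 4. For Odam this rests on 31 counts in case 5 beside 34 counts in case 6 (2.48 and 2.26 CPM), which is within counting error. Klk4 held only 7 counts in case 5. The dentin gene Dspp had 96.4 CPM in case 5, against 14.1 CPM in control 5, and at most 1.102 CPM elsewhere, and the enamel gene Ambn had 123 CPM in case 5, against 37.2 CPM in control 5. The enamel gene Amelx was high in case 5 alone, with 221.5 CPM, against 0.613 CPM in control 5 and 3.38 CPM in control 6, and Amtn, Odam and Klk4 were higher in control 5 than in case 5. The 8 muscle genes together took 117.8 CPM in case 5, 8.84 CPM in control 5 and 356.8 to 1247 CPM elsewhere. In 6 of the 8 both libraries numbered 5 lay below the other 4. The exceptions were Myh7, with 5.673 CPM in case 5 and 1.996 CPM in case 6, and Myh4, with 2.397 and 2.395 CPM. The part of tooth-forming cells or muscle in the members' values was not tested.

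**Figure D5:**
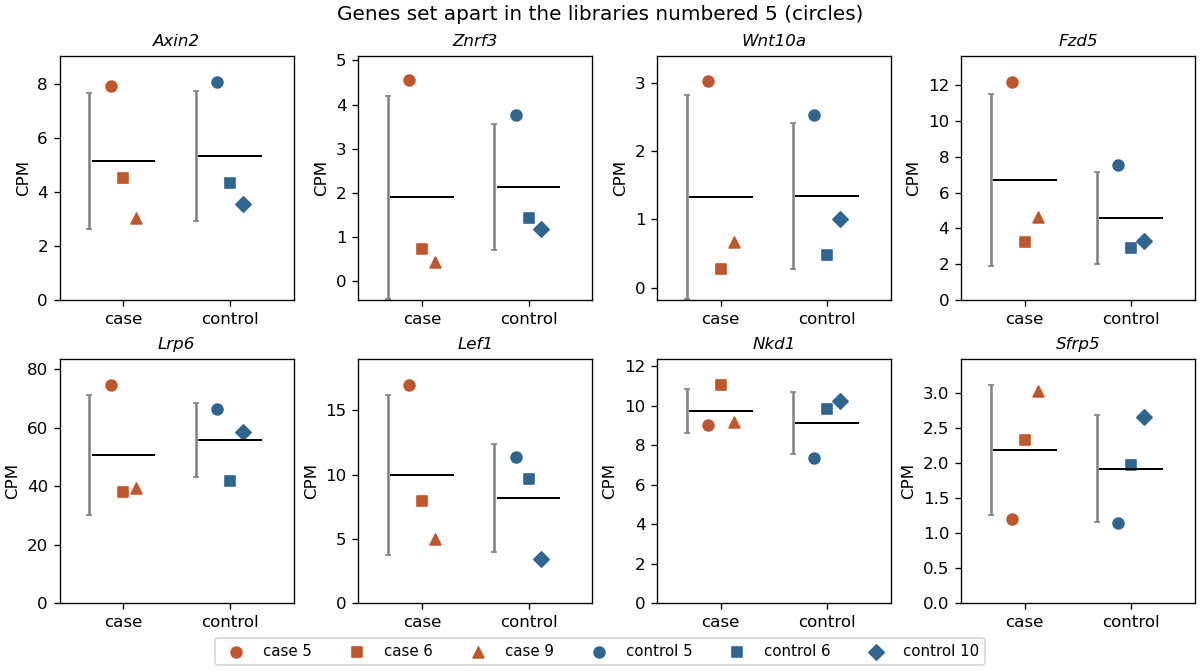
CPM of 8 members in each library, case left of control; circles mark the libraries numbered 5, black lines the group means and grey bars ± SD (n = 3). Circles lie above the other symbols for Axin2, Znrf3, Wnt10a, Fzd5, Lrp6 and Lef1 and below them for Sfrp5, in both groups; for Nkd1 the gap is only 0.02 in log2 CPM.

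Other genes of the pathway, from a list of 58 of which 57 were in the table and 52 tested, gave a like picture between groups. The edgeR test called 0 of the 52, 0 had an unadjusted p under 0.05 (1.88% of all tested genes were higher and 2.27% lower at that p), and the median log2 fold change was -0.06, with 20 higher and 32 lower in case. Those with the smallest p were Csnk1g2, a casein kinase that phosphorylates Lrp6 (209 ± 14.9 CPM in case and 167 ± 18.1 CPM in control), and Gsk3a, a kinase of the destruction complex (116 ± 17.7 and 95.7 ± 6.09 CPM). Csnk1g2, higher in case, was the only tested gene of this list whose groups did not overlap, or 1.92%, where 4.05% of all tested genes were separate and higher and 4.42% separate and lower. Wls, which carries Wnts to the cell surface, averaged 44.5 ± 9.08 CPM in case and 55.4 ± 7.03 CPM in control, and Frzb, a decoy receptor, 7.87 ± 3.78 and 11.2 ± 3.07 CPM. Sost, the osteocyte inhibitor of Lrp5 and Lrp6, had 179, 208 and 160 CPM in case and 219, 104 and 66.7 CPM in control, with control 5 above all case libraries and the other control libraries below them.

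In this wider list 27 of 52 genes (51.9%) had both libraries numbered 5 above the other 4, and 0 had both below, where the shares over all tested genes were 20.0% and 17.8%. Apc, the scaffold of the destruction complex, had 50.2 and 43.8 CPM in case 5 and control 5 and 18.9 to 27.9 CPM elsewhere. The polarity genes Vangl2 (2.42 times the mean of the other 4) and Celsr1 (3.44 times) and the Sost receptor Lrp4 (1.97 times) stood likewise.

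Genes known as targets of the pathway had mostly negative fold changes and no call. Of 16 listed, 14 were in the table and 11 tested, 1 with a positive and 10 with a negative fold change, with a median log2 fold change of -0.24 and 0 called by edgeR. Ccnd1, which encodes the cell cycle protein cyclin D1, had 50.1, 47.0 and 46.0 CPM in case and 67.9, 77.7 and 65.2 CPM in control. The groups did not overlap, with a log2 fold change of -0.56 (SE 0.14; edgeR unadjusted p 0.00385, adjusted p 0.999). Wisp2, a matricellular protein, had 29.1, 30.3 and 30.6 CPM in case and 38.1, 57.3 and 62.3 CPM in control, and its log2 fold change was -0.81 (SE 0.20; edgeR unadjusted p 0.00454, adjusted p 0.999). Twist1, a transcription factor of jaw and suture mesenchyme, averaged 46.3 ± 3.58 CPM in case and 62.9 ± 15.4 CPM in control, also without overlap. These 3 made up 27.3% of the 11, all lower in case, where 4.42% of all tested genes were separate and lower and 4.05% separate and higher. Among the short marker lists the share separate and lower ran from 0% (osteoblast) to 33.3% (endothelium, 2 of 6 genes). The target list is short and was chosen with earlier results known, so its share is a description without a test. Negative fold changes were also the more frequent over all tested genes, with 8620 of 16066.

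In 4 of the 11 tested targets (36.4%), Wisp1, Gja1, Jag1 and Tnfrsf11b, both libraries numbered 5 lay above the other 4. In 0 tested targets did both lie below. Over all tested genes these shares were 20.0% and 17.8%. Wisp1, known from bone as a Wnt-induced protein, had 102, 18.0 and 16.8 CPM in case and 74.5, 46.3 and 29.98 CPM in control, 3.18 times as high in the libraries numbered 5 as in the other 4. Gja1, the gap junction protein of osteoblasts and osteocytes, had 354, 152 and 167 CPM in case and 364, 353 and 325 CPM in control. Control 6 thus came close to both libraries numbered 5. The place of Gja1 rests on 4433 counts in case 5 beside 4480 counts in control 6. That gap of 0.006 in log2 CPM is within counting error, and the gap of Tnfrsf11b was also small, at 0.02. Myc averaged 72.1 ± 15.7 and 69.9 ± 15.4 CPM in case and control. Sp5, often read as a sensitive target, had at most 3 counts in a library, and so sets no direction here.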

How the data were processed

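RNA was extracted with TRIzol and sequenced single-end after an Ion Total RNA-Seq library kit, per the labels' protocols. The deposited values are raw counts for each gene symbol and library, in a single table. What aligner, counter, build, annotation and strand setting the authors used is not given in the sources used here, so reads of overlapping or antisense genes and of close relatives could be shared. Columns were matched to libraries by title, and groups were taken from the titles.

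Genes passing edgeR's filterByExpr (16066 of 37203) were scaled with TMM and fitted in edgeR 4.0.16 (R 4.3.3) by the quasi-likelihood test, with the group alone in the design and Benjamini-Hochberg adjustment over all of them at 0.05. Members were read from that fit. CPM is per TMM-scaled total of the tested genes; it is not per length, so levels are compared between libraries only. The SE is the fold change over the root of the F statistic. The script was tested on simulated data. Depth limits each count as given in the report, and floors cover counting error only.

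Members, roles and lists were chosen with earlier results of these data known. Members were named by a fixed rule: in each role the 3 of highest mean CPM and the 2 of smallest p, the 6 with the widest gap between the libraries numbered 5 and the others, and 12 always given. Of other pathway genes, Sost, Frzb, Lgr4, Wls and the 2 of smallest p were named. Every other gene in the text was chosen after its values were seen. All 59 members matched a RefSeq symbol. Alternatives tried were scaling by upper quartiles, by library totals or with DESeq2's size factors, no filter, a filter of 10 or more counts in 3 libraries, limma-voom (limma 3.58.1), DESeq2 1.42.0, each library left out, the title number as a block, both libraries numbered 5 left out, and number 5 as a covariate.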

Additional observations from a re-analysis of the deposited data

How the results depend on the processing

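Under all 16 alternatives 0 members were called at an adjusted p of 0.05. Over all genes edgeR called 0, DESeq2 called 21, and leaving out single libraries gave 0 to 2 (2 without control 5); at an unadjusted p under 0.05 edgeR gave 666 genes and DESeq2 739. The number of members with separate groups was 3 as reported, 4 to 11 with 1 library left out, 15 with the replicate block and 17 without both libraries numbered 5. Fewer libraries make separation easier: over all tested genes the share was 8.47% as reported, 13.9% to 28.9% with 1 library left out (28.9% without case 5, where the 11 members were found), 22.5% with the block and 46.8% without both. The median log2 fold change over members ran from -0.23 to 0.03 and was positive only with the block. Of the 32 named members, 13 kept their sign in every alternative that could be fitted and 19 did not; Axin2, Wnt10a, Wnt5a, Rspo1, Rspo2 and Sfrp2 were among those that did not. Of 510 values for named members under alternatives, 503 moved by less than 1 SD between libraries and 7 by more. The block used the numbers 5 and 6, which both groups share; the labels do not say that a number pairs samples. Deviations from the group means correlated across genes at 0.38 for the libraries numbered 5 and 0.136 for those numbered 6. The unmatched pairs of case 9 with control 6 and case 6 with control 10 had 0.283 and 0.145. The remaining unmatched pairs ran from -0.338 (case 5 with control 6) to 0.103 (case 9 with control 10). Deviations sum to 0 within a group, so these values depend on each other and cannot decide on pairing. The numbers are not taken as pairs because the labels do not give them as such. Sostdc1 and Wnt10a each fell under the filter in 1 alternative. For Dkk2, Znrf3 and Wnt10a, counts under 60 a library limit the precision.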
